A study of Homo sapiens with 12 samples.

Results

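The genes followed here act at the output end of the Wnt pathway: 4 TCF/LEF transcription factors (TCF7, LEF1, TCF7L1 and TCF7L2), their partner β-catenin (CTNNB1), and 5 feedback inhibitors (AXIN2, NKD1, NKD2, NOTUM and RNF43). They were chosen by name and are 10 of the 27348 genes in the RNA-seq table. For each of them the data give a mean RNA level and the ChIP-seq peaks of 2 Polycomb factors. The cells were K562, an established erythroid-like line from a chronic myeloid leukemia, infected with an shRNA against the long isoform of PHF19 (sh#1 or sh#2, labelled sh1 and sh2) or with an empty shRNA vector (shCT). ChIP-seq had 1 library per condition. Peaks of PHF19 in shCT, of MTF2 in sh#2 and of MTF2 in shCT were analysed, so no peak value below has a replicate and none was tested. RNA-seq had 6 libraries, 2 each of sh#1, sh#2 and shCT, and the value used is the authors' mean normalized count over all 6, which does not separate the groups. Neither the depth of a library nor the degree of PHF19 depletion can be read from these values.

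Without a Wnt signal, β-catenin is marked for destruction by a complex built on axin and APC. When Wnt ligands bind Frizzled receptors, β-catenin accumulates, enters the nucleus and joins TCF/LEF proteins on DNA, and the genes switched on include inhibitors that damp the signal. In hematopoietic cells, TCF7 and LEF1 are best known as factors of T cell development. PHF19 and MTF2 are homologs of the Drosophila Polycomb-like protein. They bind PRC2, the enzyme that places the repressive H3K27me3 mark, and MTF2 has a DNA-binding domain that prefers unmethylated CpG-rich sequence. The question that the MTF2 libraries address is whether MTF2 occupancy differs once PHF19 has been reduced.

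The start sites of 2 TCF/LEF genes show a promoter with peaks and a promoter without a listed peak side by side. The windows hold the 250 bases before the start of the canonical transcript, read on the gene's strand in GRCh37, with each CG pair in capitals. TCF7L1, at chr2:85360265-85360514 on the plus strand, was covered by a peak in all 3 lists. TCF7L2, at chr10:114709756-114710005 on the plus strand, had no peak.
TCF7L1: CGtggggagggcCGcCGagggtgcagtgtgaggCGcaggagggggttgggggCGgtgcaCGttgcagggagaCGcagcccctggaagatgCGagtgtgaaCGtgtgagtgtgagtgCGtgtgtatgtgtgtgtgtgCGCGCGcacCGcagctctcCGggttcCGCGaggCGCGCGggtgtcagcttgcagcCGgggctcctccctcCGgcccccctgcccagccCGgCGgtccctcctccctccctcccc
TCF7L2: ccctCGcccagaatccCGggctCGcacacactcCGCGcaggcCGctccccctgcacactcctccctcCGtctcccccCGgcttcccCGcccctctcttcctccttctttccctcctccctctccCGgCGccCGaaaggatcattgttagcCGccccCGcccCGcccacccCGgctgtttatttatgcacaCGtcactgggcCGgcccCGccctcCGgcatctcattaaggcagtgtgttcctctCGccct

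The windows held 24 CG pairs in TCF7L1 and 21 in TCF7L2. Over 24051 genes the median was 15, with quartiles of 4 and 25. In order of rank, TCF7L1 stood at percentile 72.0 and TCF7L2 at 64.2. Thus the window of TCF7L2 was above the median although no peak lay there. Of other members, CTNNB1 had 34 pairs, AXIN2 30, NKD2 26, TCF7 23 and LEF1 17. RNF43 had 4, at percentile 23.8, the lowest of the windows given here.

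A gene was counted as bound in a list when a peak overlapped the region from 2.5 kb upstream of its outermost start site to its end. PHF19 peaks were found at 6 of the 10 genes (LEF1, TCF7L1, CTNNB1, NKD2, NOTUM and RNF43), against 10.2% of the 24055 genes that could be placed on the genome. MTF2 peaks in sh#2 were found at 8 genes, all but TCF7L2 and RNF43, against 18.1% of all genes. MTF2 peaks in shCT were found at 7 genes, those 8 without CTNNB1, against 13.5% of all genes. With peaks at or above the median score of their own list, PHF19 was at the same 6 members (6.07% of all genes), and MTF2 was at 5 members in sh#2 (12.9% of all genes) and 4 in shCT (9.22%). The members are longer than most genes, with a median span of 64.6 kb against 21.9 kb for all placed genes, and a long gene gives more room for a peak. Within 2.5 kb of an annotated start site the members' counts were again 6, 8 and 7, against 7.86%, 15.6% and 11.1% of all genes.

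**Figure D1:**
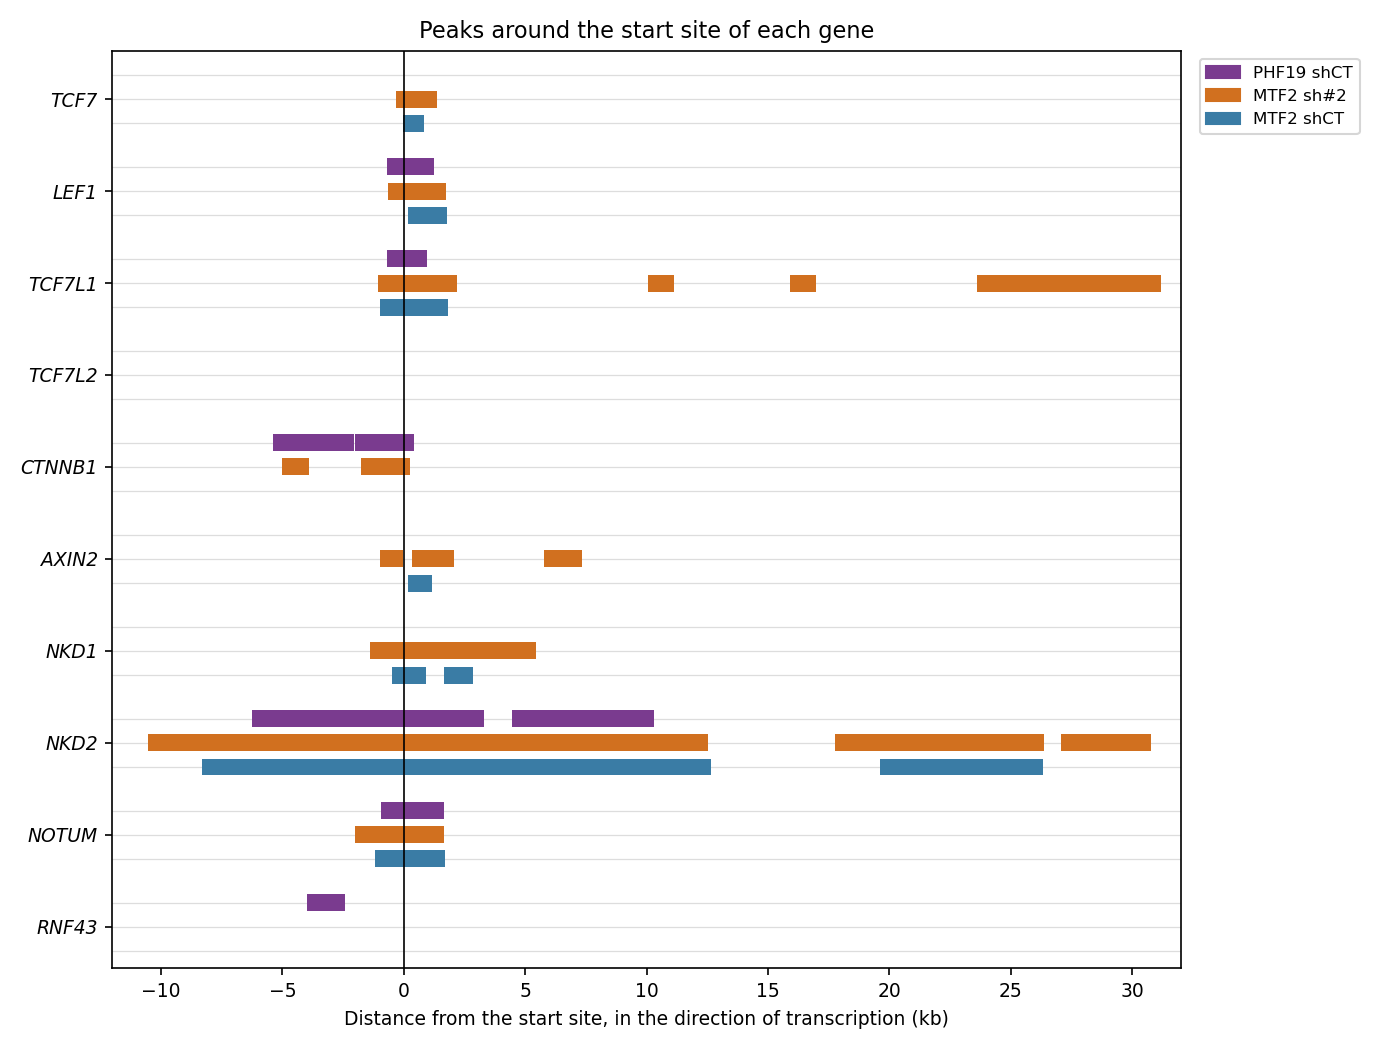
Peaks around the canonical start site of each of the 10 genes, with distance in kb in the direction of transcription on the x axis and a line per list (PHF19 shCT, MTF2 sh#2, MTF2 shCT). CTNNB1 has PHF19 and MTF2 sh#2 bars but no MTF2 shCT bar, RNF43 has a PHF19 bar alone, and TCF7L2 has no bar. Peaks of TCF7L1 and NKD1 beyond 32 kb are outside the plot.

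The genes fell into 5 combinations of lists. LEF1, TCF7L1, NKD2 and NOTUM were in all 3 lists, as were 6.39% of all genes. TCF7, AXIN2 and NKD1 had MTF2 peaks in both conditions and no PHF19 peak, a combination held by 6.22% of genes. CTNNB1 had PHF19 together with MTF2 in sh#2 but no MTF2 in shCT, which was seen in 0.827% of genes. RNF43 had PHF19 alone (2.76% of genes) and TCF7L2 had none of the 3 (78.3%). Of the 6 PHF19-bound members, 2 (CTNNB1 and RNF43) thus lacked MTF2 in shCT, against 35.3% of the 2448 PHF19-bound genes. These were counted without the authors' minimum number of tags per peak, and their own set of PHF19 targets was smaller.

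Among the TCF/LEF factors, TCF7 (chr5:133450372-133487556) had a narrow MTF2 peak on its start site. The peak was 1669 bp wide with a score of 86.0 in sh#2 (rank 11478 of 18287), and 832 bp with a score of 76.6 in shCT (rank 7235 of 12502). The score is the peak caller's own and was not scaled between lists. Both peaks were in the weaker part of their lists. The shCT peak had 16.1 CG pairs per 100 bases, at the top end of its list. The nearest PHF19 peak was 42511 bp from the start site.

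LEF1 (chr4:108968701-109090112, minus strand) had 1 peak in each list at its first exon. PHF19 covered 1925 bp with a score of 95.9 (rank 1674 of 5621). MTF2 covered 2394 bp with a score of 96.6 in sh#2 (rank 10384), and 1602 bp with a score of 69.7 in shCT (rank 8155). In sh#2 the MTF2 peak reached over the start site, from position -667 to 1726, whereas in shCT it began 192 bases inside the gene. Of the shCT peak, 1535 bp were also under the sh#2 peak.

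TCF7L1 (chr2:85360515-85537510), which acts mostly as a repressor of Wnt targets, carried the most peaks. At the promoter, PHF19 had a score of 149 (rank 733) over 1614 bp. MTF2 there scored 591 in sh#2 (rank 1293, 3241 bp) and 406 in shCT (rank 722, 2797 bp), and both peaks contained the whole PHF19 peak. A further pair of PHF19 peaks lay in intron 4, at 153.6 to 156.4 kb and 162.4 to 164.3 kb from the start site, with scores of 96.4 and 164. Each of these also overlapped MTF2 in both conditions. They held 1.25 and 1.38 CG pairs per 100 bases, against 11.0 in the promoter peak and a median of 1.74 over all PHF19 peaks. Distal PHF19 and MTF2 were therefore found together at TCF7L1 in sequence with fewer CG pairs than the list median, at percentiles 33.7 and 38.85 of the list.

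Along the body of TCF7L1, the 2 MTF2 lists differed in both directions. There were 16 peaks over 45351 bp in sh#2 and 11 peaks over 20157 bp in shCT. Of the sh#2 peaks, 12 had no shCT peak under them, and of the shCT peaks, 6 had no sh#2 peak. Of those 6, 4 formed a cluster in intron 3 at chr2:85496491-85506761, from 136 to 146 kb behind the start site, which covered 8496 bp in shCT and none in sh#2. Their scores ran between 55.0 and 104, so the strongest ranked 5012 of 12502. The sh#2 peaks without a partner were spread along introns 3 and 4 and exons 5 to 8, with scores between 50.4 and 152. The lowest score in each list was 50, so several of these peaks were close to the limit of the list. Where both lists had an intron 4 peak with PHF19, the MTF2 scores were 365 and 265 in sh#2, against 188 in shCT at the first site and 74.0 and 85.1 at the shCT peaks of the second.

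**Figure D2:**
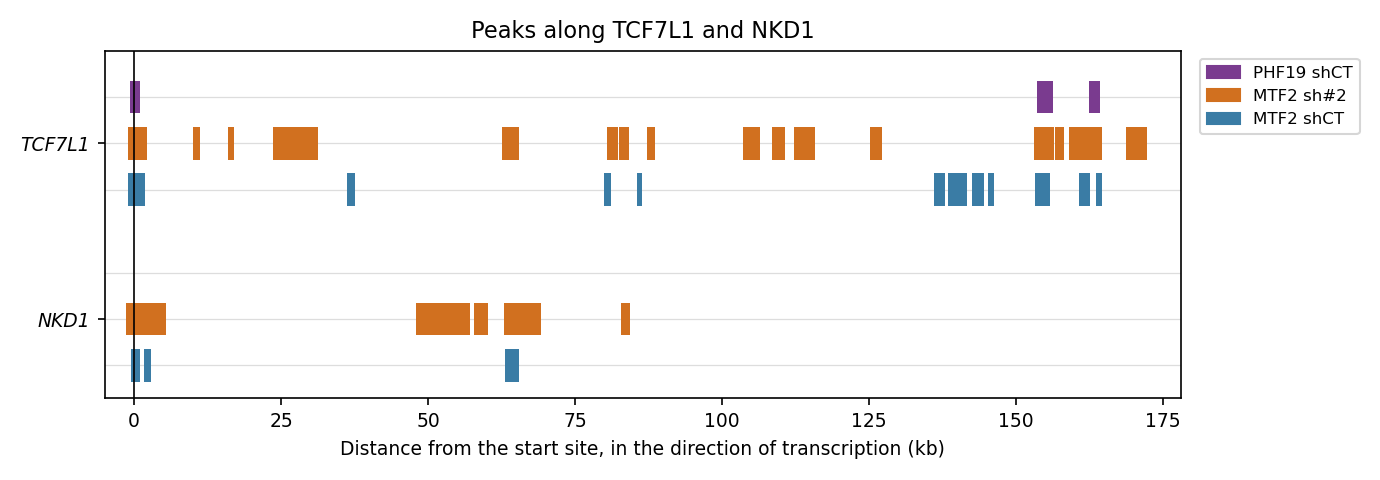
Peaks along TCF7L1 and NKD1, with distance from the start site in kb on the x axis and a line per list. The 4 shCT bars of TCF7L1 between 136 and 146 kb have no sh#2 bar, and the sh#2 bar of NKD1 at 47.9 to 57.1 kb has no shCT bar.

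TCF7L2 (chr10:114710006-114927437), with 217 kb the longest of the 10 genes, had no peak. The nearest PHF19 peak was 1681658 bp from its start site. MTF2 was 309158 bp away in sh#2 and 310813 bp away in shCT.

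CTNNB1 (chr3:41236232-41301587) had a pair of strong PHF19 peaks next to each other. The first ran from -5401 to -2049 of the canonical start site, around the outermost annotated start, with a score of 213 (rank 367 of 5621). The second ran from -2017 to 421, over the canonical start site, with a score of 254 (rank 239). MTF2 in sh#2 had a peak inside each of them, with scores of 75.8 (rank 12809) and 93.7 (rank 10665), over 3123 bp in all. MTF2 in shCT had no peak in the region, and the nearest was 582244 bp from the start site. The PHF19 peaks were thus in the top 6.53% and 4.25% of their list, while the MTF2 sh#2 peaks were below the median of theirs. The peak over the start site was rich in CG pairs (6.40 per 100 bases) and the upstream one held 1.37 per 100 bases, at percentile 38.7 of the list.

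The feedback inhibitors differed from one another. AXIN2 (chr17:63524681-63557766, minus strand), a scaffold of the destruction complex, had its nearest PHF19 peak 354402 bp away. MTF2 had 3 peaks over 4218 bp in sh#2 and 1 peak of 1007 bp in shCT. The main sh#2 peak, in intron 1, scored 192 (rank 5452), and the shCT peak that it overlapped scored 55.2 (rank 10912). The others, one ending 49 bases before the start site and one in intron 2, scored 51.2 and 61.0 and had no shCT partner.

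NKD1 (chr16:50582307-50683160) and NKD2 (chr5:1008917-1039058) encode Naked cuticle proteins, which bind Dishevelled and restrain the signal. At the NKD1 start site, the MTF2 peak scored 670 over 6846 bp in sh#2 (rank 1028) and 185 over 1415 bp in shCT (rank 2416). The sh#2 peak also contained a second, weak shCT peak in intron 3. Within intron 4, a region that also holds the start of another annotated gene had a score of 407 in sh#2 and 135 in shCT. Another 3 sh#2 peaks had no shCT partner, and the widest, of 9178 bp at 47.9 to 57.1 kb, scored 146. In all, MTF2 covered 26265 bp of NKD1 in sh#2 and 4988 bp in shCT. The nearest PHF19 peak was 566148 bp away.

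NKD2 was under the broadest peaks of the group. Its PHF19 peak, 9570 bp from -6247 to 3322 around the start site, scored 340 and ranked 122 of 5621. A second PHF19 peak in intron 3 scored 95.1. MTF2 covered the start site with a peak of 23069 bp and a score of 362 in sh#2, and of 20973 bp and a score of 254 in shCT. The 95th percentile of peak width was 4841 bp for PHF19, 8691 bp for MTF2 in sh#2 and 5760 bp for MTF2 in shCT. Both PHF19 peaks lay wholly under MTF2 in each condition. The stronger MTF2 peak of NKD2 in both conditions was not at the start site but over exons 4 to 7. It scored 504 in sh#2 and 616 in shCT, so that the sh#2 score was the lower there, as it was at a weak pair in intron 3 of TCF7L1 (53.8 in sh#2 and 57.0 in shCT). A peak at the end of the gene, with a score of 87.4, was in the sh#2 list alone. MTF2 covered 81.8% of the gene region in sh#2 and 66.9% in shCT.

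NOTUM (chr17:79910383-79919716, minus strand), a secreted carboxylesterase that removes the lipid from Wnt proteins, had the highest MTF2 score of the 10 genes in sh#2. The peak scored 1344 over 3684 bp in sh#2 (rank 225 of 18287) and 487 over 2882 bp in shCT (rank 520 of 12502). PHF19 scored 174 over 2580 bp (rank 549 of 5621), wholly inside both. That PHF19 peak had 13.6 CG pairs per 100 bases, at percentile 99.7 of its list.

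RNF43 (chr17:56431037-56494956, minus strand), a ubiquitin ligase that removes Frizzled receptors from the cell surface, had a PHF19 peak of 1561 bp from -3980 to -2420, with a score of 188 (rank 464). Only 142 bp of it fell in the gene region, so RNF43 was counted by its upstream edge. The peak was unlike that of NOTUM in sequence, with 0.32 CG pairs per 100 bases (percentile 1.46 of the list) and 33.6% GC. The nearest MTF2 peak was 113753 bp from the start site in sh#2 and 113766 bp in shCT. Across the whole PHF19 list, the 2671 peaks that overlapped MTF2 in shCT had a median of 2.64 CG pairs per 100 bases. The 2950 that did not had 1.18. This list includes peaks that the authors' tag filter left out, so these numbers do not describe the study's own PHF19 targets. Among the members, PHF19 peaks without MTF2 in shCT were CG-poor at RNF43 and moderately below the list median in CG pairs at the upstream peak of CTNNB1 (percentile 38.7). The division was not complete. The CTNNB1 start site was CG-rich without MTF2 in shCT, and the peaks in intron 4 of TCF7L1 were below the list median with it.

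**Figure D3:**
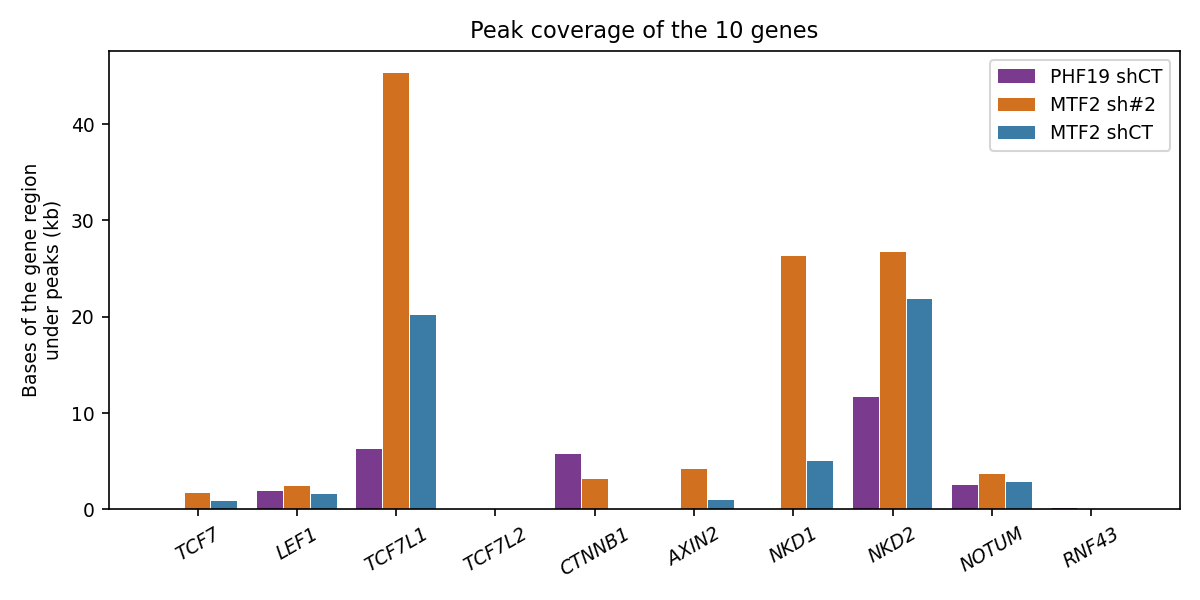
Bases of the gene region under peaks (kb, linear axis from 0) for each gene and list, in the order PHF19 shCT, MTF2 sh#2 and MTF2 shCT. MTF2 covered more bases in sh#2 than in shCT in all 8 genes with an MTF2 peak. The widest gap was in TCF7L1, where the bars stand at 45.4 kb in sh#2 and 20.2 kb in shCT. The whole sh#2 list is also larger (63.2 Mb against 29.0 Mb). The exact share of all genes with more covered bases in sh#2 was not computed. NKD2, with a ratio of 1.22, stood at percentile 27.2 of the genes with an MTF2 shCT peak. Most of those genes thus also had more covered bases in sh#2.

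Covered bases over the gene region were then compared between the MTF2 lists. MTF2 covered over 1.5 times as many bases in sh#2 as in shCT, or any base where shCT had none, in 5 of the 10 genes (TCF7, TCF7L1, CTNNB1, AXIN2 and NKD1), against 13.5% of all genes. That share counts genes without any MTF2 peak too. Only a gene with an sh#2 peak can be called, and 5 of 8 such members were, as were 3245 of 4343 such genes. Among genes with an sh#2 peak, the members' share was thus not above that of all genes. With peaks at or above the median score the members called were 3 (TCF7L1, AXIN2 and NKD1), against 9.33% of all genes. With as many of the highest scoring sh#2 peaks as shCT has, TCF7L1 was no longer called, which left 4 members, against 10.3% of all genes. Over the 3255 genes with an MTF2 peak in shCT, the median ratio of sh#2 to shCT was 1.72. NKD1, with a ratio of 5.27, stood at percentile 92.6 of these genes and AXIN2, with 4.19, at 88.2. TCF7L1 (2.25) and TCF7 (2.01) were at 66.5 and 59.7. LEF1 (1.49), NOTUM (1.28) and NKD2 (1.22) lay below the median. The whole sh#2 list was larger, with 18287 peaks over 63.2 Mb against 12502 peaks over 29.0 Mb in shCT. This difference between the lists moved with each value, and its part in the members' ratios was not tested.

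The peaks within 2.5 kb of canonical start sites were also compared by score. NOTUM, TCF7 and TCF7L1 changed sides of the median between covered bases and this score. Of the 12502 MTF2 peaks in shCT, 83.2% had a peak in sh#2, with a median score ratio of 2.14 and a higher score in sh#2 for 87.9%. At the 7 canonical start sites of members with a peak in both conditions the score was higher in sh#2 in 7 of 7. This did not hold near other annotated start sites of NKD2 and TCF7L1, where the pairs over exons 4 to 7 and in intron 3 had the lower score in sh#2, as given above. The ratio was 3.62 in NKD1 (percentile 76.2 of all pairs), 3.48 in AXIN2 (74.8) and 2.76 in NOTUM (63.9). It was 1.46 in TCF7L1, 1.42 in NKD2, 1.39 in LEF1 and 1.12 in TCF7, where percentiles ran between 16.5 and 28.1. The inhibitors NKD1, AXIN2 and NOTUM were therefore above the median of the list and the 3 TCF/LEF factors and NKD2 below it. Those percentiles refer to all pairs, also those away from start sites. Over 1996 gene promoters with a pair, the median ratio was 1.97, with quartiles of 1.37 and 2.89, and the members divided in the same way. No error can be put on these ratios. What the score stands for is not given, so they are not to be read as fold changes of MTF2 occupancy.

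**Figure D4:**
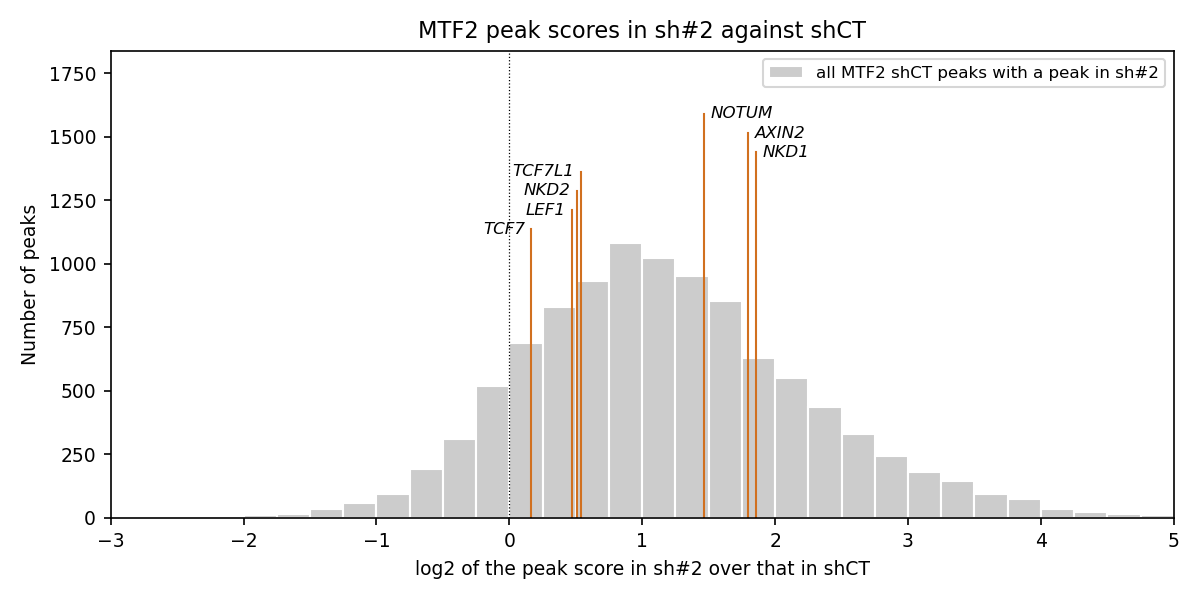
Number of MTF2 shCT peaks (y axis) by the log2 ratio of the score in sh#2 over that in shCT (x axis), for shCT peaks with a peak in sh#2. Orange lines mark the promoter peaks of 7 genes, at ratios between 1.12 (TCF7) and 3.62 (NKD1), and the dotted line marks equal scores.

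Peaks of 1 condition alone were counted last. Of the 32 MTF2 peaks at the members in sh#2, 20 (62.5%) had no shCT peak under them, against 53.0% of the whole sh#2 list. Of their 20 peaks in shCT, 6 had no sh#2 peak, against 16.8% of the whole shCT list, and all 6 were in TCF7L1. As 16 of the 32 and 11 of the 20 peaks belong to that gene, these counts describe TCF7L1 more than the group.

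In the RNA-seq, 7 of the 10 genes had a mean normalized count of at least 10, against 53.7% of all 27348 genes. The exceptions were TCF7L1 (9.32), NKD1 (7.09) and AXIN2 (3.99). Levels of different genes were compared per kb of annotated exon. CTNNB1 had 748 mean normalized counts per kb (percentile 91.5 of the placed genes), LEF1 179 (73.6) and NOTUM 116 (68.4). RNF43 had 35.9, TCF7L2 31.5 and TCF7 20.4, all above the median of 9.96 per kb. NKD2 had 4.24, TCF7L1 2.10, AXIN2 0.768 and NKD1 0.408. In a bulk library, few cells with a transcript and little transcript per cell cannot be told apart. These means carry no error, so the order of close neighbours such as RNF43 and TCF7L2 is not established. Exons of RNF43 and of another annotated gene reach into the 250 bases before the canonical start of RNF43. Some reads may thus be shared, which was not tested.

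**Figure D5:**
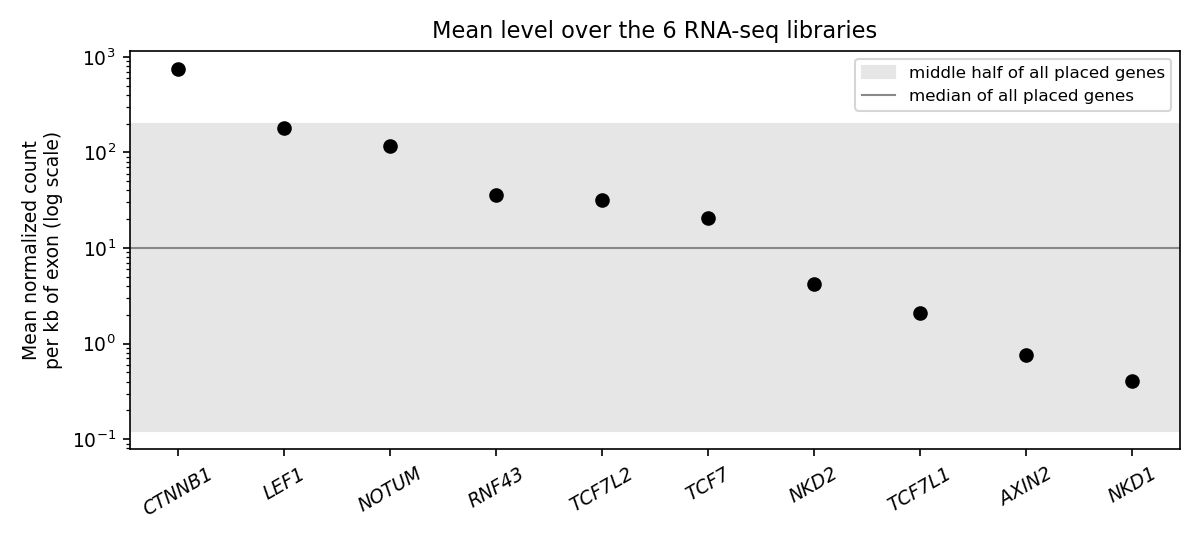
Mean normalized count per kb of annotated exon (log axis) of the 10 genes over the 6 RNA-seq libraries, in falling order. The grey band spans the quartiles of all placed genes, 0.121 to 197 per kb, and the line is their median, 9.96 per kb. CTNNB1, at 748, is above the band.

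Set beside the peaks, the 4 genes with the lowest level per kb were NKD2, TCF7L1, AXIN2 and NKD1. Each had over 1 MTF2 peak in sh#2, but so did CTNNB1, the gene with the highest level. The further peaks of AXIN2 scored 51.2 and 61.0, near the lowest score of 50 in that list. The share of all genes with over 1 such peak was not computed, and a link between peaks and level was not tested. The 4 genes with a peak in all 3 lists stood at both ends of the range, with LEF1 and NOTUM at 179 and 116 per kb and NKD2 and TCF7L1 at 4.24 and 2.10 per kb. CTNNB1 combined the highest level with the highest ranking start-site PHF19 peak after that of NKD2. RNA levels here include the shRNA libraries, so they do not describe shCT alone.

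Other genes of the pathway were counted in the same way. Over all placed genes, 10.2% had a PHF19 peak, 18.1% an MTF2 peak in sh#2 and 13.5% one in shCT. The share with over 1.5 times more MTF2-covered bases in sh#2 was 13.5%. A mean count of at least 10 was held by 53.7% of the 27348 genes. Of 14 genes of the destruction complex and its regulators, 1 had a PHF19 peak, 1 an MTF2 peak in sh#2 and 1 in shCT. In each case it was APC2, a relative of APC, with a PHF19 promoter peak of rank 386. None of the 14 gained MTF2-covered bases over 1.5 times, and all 14 had a mean count of at least 10. Of 18 β-catenin cofactors and TCF/LEF corepressors, 1 had a PHF19 peak (CDC73, a subunit of the PAF1 complex, rank 5386), 2 an MTF2 peak in sh#2 and 3 in shCT. Of these 18, 1 gained MTF2-covered bases over 1.5 times and 17 had a mean count of at least 10. Of 18 other Wnt target genes, 2 had a PHF19 peak, 8 an MTF2 peak in sh#2 and 7 in shCT. The PHF19-bound ones were CCND1, which encodes cyclin D1 and had a promoter peak of rank 3658, and EPHB3, an ephrin receptor, with a peak in the gene. The promoter peaks of CDC73 and CCND1 were in the lower part of the PHF19 list by score. Of the 18 other Wnt target genes, 5 had over 1.5 times more MTF2-covered bases in sh#2, all of them among the 8 with an sh#2 peak. A mean count of at least 10 was held by 7 of the 18. The genes behind these lists were chosen by function with earlier results of the data known.

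As a check of the cell line, all 10 erythroid genes had mean counts between 4053 (LMO2) and 171752 (HBG2, whose reads may be shared with its near-identical copy HBG1). Among 6 T cell markers, CD3D had 961.7 and CD8A was listed at 0, and 4 of 6 had at least 10. Among 3 B cell markers 1 had at least 10. Over all genes this share was 53.7%. PHF19 itself had a mean count of 7798 and MTF2 one of 2797.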

How the data were processed

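Per the labels and the study's methods, the authors aligned RNA-seq reads with TopHat to hg19, counted them over RefSeq exons and compared both shRNAs with shCT in DESeq2. Of their deposited table, the mean normalized count over all 6 libraries was used here and is treated as a score. Its other columns hold the fold changes, standard errors, statistics and p-values of the authors' own comparison and were not used. The planned test of RNA between groups could not be run, since the table holds no value per library. ChIP-seq reads were mapped by the authors with Bowtie to hg19 and dm3, and peaks were called per library with MACS against a control sample. The authors scaled their ChIP-seq levels by the reads of a fly spike-in and checked several sites by ChIP-qPCR. The scores used here have no such scaling. For their PHF19 targets the authors kept peaks over a minimum number of tags. The deposited lists give no column of tag counts, so that filter was not applied here and all listed peaks were counted. The study's own set held fewer PHF19 peaks and target genes, and the paper reports that most of these targets overlapped MTF2 targets. The deposited lists give each peak's position and a score that is not scaled between lists. What that score stands for, and which tool versions were run, is not given in the sources used here. The track heading of the PHF19 list also names a further hairpin sample, so its background is not certain, and the heading of the MTF2 sh#2 list carries another hairpin number than its label, which was followed. Without tag counts, depth is unknown and no interval was computed.

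Genes were placed by GENCODE 44 on GRCh37, the assembly of hg19 (24055 of 27348, through synonyms where needed, whereas the authors used RefSeq), and overlaps of at least 1 bp were counted in Python 3.11.15 with numpy 2.4.6 and pandas 2.3.3. Overlap steps were tested on simulated data. Windows before start sites were read from GRCh37, and some of them are not reported here. Coordinates are 1-based, and figures were drawn with matplotlib 3.10.9. All 10 members are named, and of each pathway list up to 3 genes by the rank of their PHF19 promoter peak. EPHB3 and the genes of the closing section were added after their values were seen. The members and lists were chosen with earlier results of these data known. Alternatives were other regions, overlaps, score limits, folds, count minimums and gene lengths. Not analysed here were PHF19 ChIP-seq after depletion (sh#1, sh#2) and the IgG control.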

Additional observations from a re-analysis of the deposited data

How the results depend on the processing

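With peaks at or above the median score of their own list, MTF2 was at 5 members in sh#2 and 4 in shCT (12.9% and 9.22% of all genes), and 3 had over 1.5 times more covered bases in sh#2 (TCF7L1, AXIN2 and NKD1; 9.33%). A minimum score of 100, chosen after seeing the data, gave the same 5, 4 and 3 (13.7%, 8.41% and 10.5% of all genes). The MTF2 peaks of TCF7, LEF1 and CTNNB1 and the shCT peak of AXIN2 thus fell below both limits. PHF19 was at 5 members with 1 kb upstream or an overlap of 500 bp (without RNF43; 9.83% and 9.91% of all genes) and with a minimum score of 100 (without LEF1; 3.95%), and at 6 in the others. With as many sh#2 peaks as shCT peaks, 8 members kept an MTF2 peak (15.4% of all genes), and 4 had more covered bases (10.3%), TCF7L1 no longer among them. The promoter region, 1 kb or 5 kb upstream, an overlap of 500 bp and a fold of 2 left the remaining counts as they were. Minimums of 1 and 100 for the mean count gave 10 and 6 members (67.2% and 40.1% of all genes). Per kb of the longest transcript in place of all exons, the levels were higher (CTNNB1 1800.2, LEF1 268, NOTUM 152, TCF7L2 52.1, RNF43 40.8, TCF7 38.6, NKD2 5.66, TCF7L1 3.12, AXIN2 0.937, NKD1 0.416), with TCF7L2 then above RNF43. No paired analysis was possible because the RNA-seq table holds no value per library and the ChIP-seq has 1 library per condition. Depth is unknown, so the absence of a peak does not show the absence of binding.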

Other observations

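Some genes outside the group had wide MTF2 differences. EPHB2, an ephrin receptor and Wnt target, was covered over 132649 bp in sh#2 and 46291 bp in shCT, with no PHF19 peak. CD5, a T cell surface glycoprotein, was covered over 11633 bp in sh#2 and 1639 bp in shCT. CD8A, the alpha chain of the T cell coreceptor, was covered over 5399 bp in sh#2 and 0 in shCT, and its RNA was listed at 0. These genes were picked after their values were seen.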
